A study of Mus musculus with 8 samples.

Results

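The promoters of mouse genes named Zfp plus a number, which encode zinc finger proteins, were examined in ATAC-seq tables of bone marrow-derived macrophages (BMDMs). A promoter peak was a peak of open chromatin whose annotated distance to the nearest transcription start site (TSS) was 2 kb or less, and Zfp36 was left out because its protein, tristetraprolin, belongs to another family and binds RNA. The WT table held 118 such peaks of 113 genes among 9698 peaks, of which 4913 were promoter peaks. The table of NCoR f/f cells held 271 peaks of 210 genes among 24867 peaks, of which 11828 were promoter peaks. The rule uses the gene name and the distance only, although it was proposed with results of these data known.

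The WT groups were Veh, KLA and RGFP966 + KLA, each with 2 libraries collected at 6 h, and the NCoR f/f group was Veh at 6 h with 2 libraries. KLA (Kdo2 lipid A) is an agonist of the lipopolysaccharide receptor TLR4, and was given at 100 ng/mL after 12 h of serum starvation. RGFP966 is an inhibitor of the histone deacetylase HDAC3, the enzyme of the NCoR corepressor complex, and was present from the start of the starvation, at a dose given as 5 mM in the methods. The sample titles name RGFP966 for the last WT pair while their treatment entry names only KLA, so this group follows the titles. Both genotypes are C57BL/6, from mice aged 8 to 12 wk per the methods. NCoR f/f cells carry floxed NCoR1 alleles, and their labels name no Cre. The column headers carry other library dates for NCoR f/f than for WT, so genotype and library date cannot be told apart and levels were not compared between the tables. Whether the 2 libraries of a group came from separate mice or cultures is not given in the sources used here, so the p-values measure the spread between these libraries only.

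The WT libraries held 116733 to 202523 tags in peaks, or 1.40 to 2.06% of all their tags, and the NCoR f/f libraries held 372367 and 509741. A level below is the tags of a peak per 100000 tags in peaks of that library, in which a single tag was worth 0.494 to 0.857 in WT. The median peak had 10 to 17 tags, so folds of single peaks are imprecise. The macrophage gene Cd68 had a promoter peak in both tables, with 7 and 13 tags in Veh, 13 and 11 in KLA, and 15 and 11 in RGFP966 + KLA. Of 16 genes of T cells, B cells, neutrophils, fibroblasts and erythroid cells, 0 had a promoter peak in WT and 1 (Klf1) in NCoR f/f. Csf1r and Adgre1, which define macrophages, had a promoter peak in neither. In bulk ATAC-seq, a site open in more cells and a site more open in each cell cannot be told apart.

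Zinc finger proteins of this kind read DNA through tandem fingers, each folded around a zinc ion held by cysteines and histidines. Many carry a Krüppel-associated box (KRAB), which recruits the corepressor TRIM28 and, through it, the histone methyltransferase SETDB1 and heterochromatin proteins, and are best known for keeping retroelements and imprinted loci silent. KRAB genes arose by repeated local duplication and lie in clusters, several of them on mouse chromosome 7. Other members lack the box and act as promoter-binding regulators, as parts of corepressor complexes, or in RNA and ribosome biology. A KRAB box was called from the spacing of its conserved residues (W, then L after 2 residues, then L-Y after 6 more) in the translated RefSeq coding sequence, a rule that misses divergent boxes, so the groups are called with and without the KRAB spacing.

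Of 366 annotated Zfp genes, 112 (30.6%) had a WT promoter peak and 209 (57.1%) an NCoR f/f peak. The spacing was found in 194 of the annotated genes, and 61 of these (31.4%) had a WT peak, against 51 of 172 (29.7%) without the spacing. In the NCoR f/f table the values were 105 of 194 (54.1%) and 104 of 172 (60.5%). Genes with the spacing and a WT peak had a median of 12 fingers (range 5 to 33), against 7 (0 to 20) for those without. The chromosome with the most annotated genes, 7, held 29 of the 118 WT peaks and 75 of the 271 NCoR f/f peaks, followed in WT by chromosomes 17 with 16, 8 with 13 and 13 with 11. No gene on chromosome X (7 annotated) or 14 (5 annotated) had a WT peak, while 2 and 3 of them had an NCoR f/f peak.

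**Figure D1:**
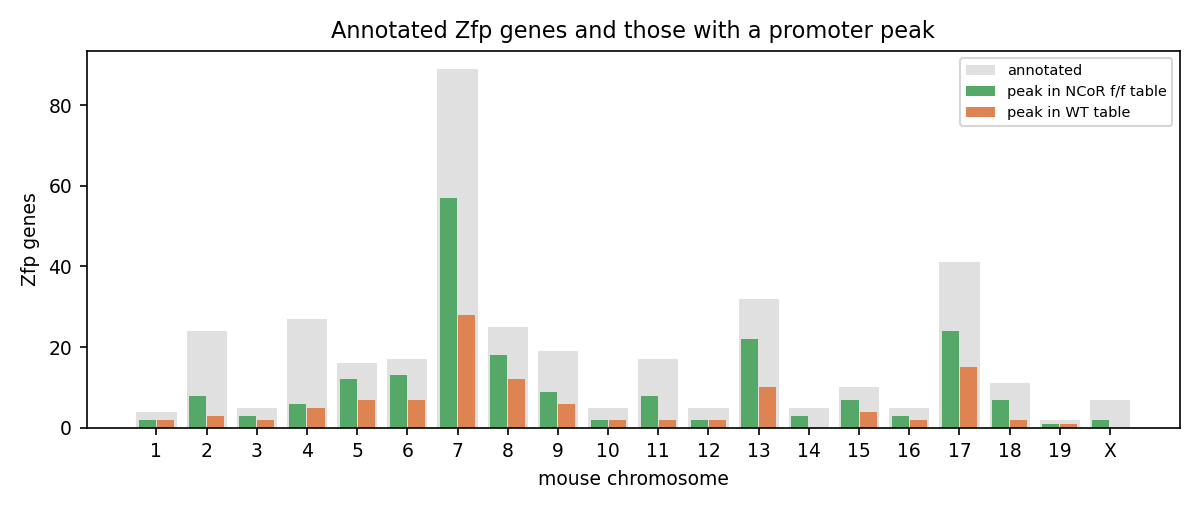
Number of Zfp genes (vertical axis) by mouse chromosome (horizontal axis), with all annotated genes in grey, genes with a promoter peak found in NCoR f/f cells in green and in WT cells in orange. Chromosome 7 leads with 89 annotated genes, of which 57 and 28 had a peak.

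The 5 peaks that rose with KLA, the second peak of Zfp945 and the only peak that fell are shown as sequence, because the results on single genes turn on them. They were read on the strand of the gene from GRCm38 (mm10), whole or, for Zfp84 and Zfp719, as the central 300 bases. The intervals are chr7:29768265-29768564 for Zfp84 (plus strand), chr17:32810736-32811004 for Zfp811 (minus), chr13:74493806-74494092 for Zfp825 (minus), chr10:82241232-82241440 for Zfp938 (minus), chr17:22866410-22866691 and chr17:22867160-22867426 for Zfp945 (minus), and chr7:43579421-43579720 for Zfp719 (plus). Capitals mark matches, on either strand, to ETS (CCGGAAG), NRF1 (GCATGCGC), YY1 (AAGATGGCG), GC box (GGGCGGG), CRE (TGACGTCA), NFY (CCAAT), NFkB (GGGACTTTC or GGGAATTCC) and AP-1 (TGAGTCA or TGACTCA), and neighbouring capitals can hold overlapping matches. A match is a run of letters, and no binding was measured.
Zfp84: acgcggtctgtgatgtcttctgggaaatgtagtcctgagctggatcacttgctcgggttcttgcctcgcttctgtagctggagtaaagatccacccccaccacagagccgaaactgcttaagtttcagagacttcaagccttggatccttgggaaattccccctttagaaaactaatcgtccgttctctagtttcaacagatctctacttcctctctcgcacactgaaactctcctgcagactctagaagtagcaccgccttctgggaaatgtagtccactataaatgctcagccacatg
Zfp811: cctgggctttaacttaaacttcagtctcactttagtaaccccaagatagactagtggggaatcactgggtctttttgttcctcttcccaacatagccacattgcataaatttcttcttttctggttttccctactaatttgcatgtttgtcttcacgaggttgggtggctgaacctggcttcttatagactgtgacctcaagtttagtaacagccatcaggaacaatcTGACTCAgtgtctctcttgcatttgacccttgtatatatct
Zfp825: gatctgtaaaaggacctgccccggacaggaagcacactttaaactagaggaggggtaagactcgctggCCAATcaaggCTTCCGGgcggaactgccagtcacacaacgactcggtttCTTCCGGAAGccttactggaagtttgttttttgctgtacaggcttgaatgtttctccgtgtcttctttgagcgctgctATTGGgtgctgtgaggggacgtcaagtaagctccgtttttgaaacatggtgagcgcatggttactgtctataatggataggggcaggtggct
Zfp938: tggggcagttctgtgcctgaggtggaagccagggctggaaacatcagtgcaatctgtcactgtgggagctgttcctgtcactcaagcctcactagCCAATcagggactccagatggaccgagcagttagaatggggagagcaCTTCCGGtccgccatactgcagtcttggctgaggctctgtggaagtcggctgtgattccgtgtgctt
Zfp945 intron: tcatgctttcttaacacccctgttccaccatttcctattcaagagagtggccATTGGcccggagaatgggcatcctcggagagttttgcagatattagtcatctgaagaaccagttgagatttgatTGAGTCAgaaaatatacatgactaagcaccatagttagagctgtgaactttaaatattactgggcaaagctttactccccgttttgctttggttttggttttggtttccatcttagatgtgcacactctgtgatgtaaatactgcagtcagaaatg
Zfp945 TSS: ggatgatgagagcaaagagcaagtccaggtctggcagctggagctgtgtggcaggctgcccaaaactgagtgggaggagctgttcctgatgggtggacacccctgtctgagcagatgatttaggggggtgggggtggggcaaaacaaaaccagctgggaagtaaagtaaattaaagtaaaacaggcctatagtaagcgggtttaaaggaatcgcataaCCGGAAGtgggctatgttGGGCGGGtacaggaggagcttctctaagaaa
Zfp719: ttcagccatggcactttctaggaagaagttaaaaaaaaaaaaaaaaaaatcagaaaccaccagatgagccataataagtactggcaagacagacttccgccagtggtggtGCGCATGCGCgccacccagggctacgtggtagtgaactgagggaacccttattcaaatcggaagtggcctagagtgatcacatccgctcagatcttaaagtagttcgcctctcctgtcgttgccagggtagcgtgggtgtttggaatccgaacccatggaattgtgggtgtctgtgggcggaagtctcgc
The Zfp825 sequence held 3 ETS and 2 NFY matches, 2 of the ETS matches being the same palindrome read on both strands, and the Zfp938 sequence held 1 of each. The Zfp811 and Zfp945 intron sequences each held 1 AP-1 match, and the Zfp945 intron sequence also held 1 NFY match. The Zfp719 sequence held an NRF1 palindrome, and none of the motifs was found in the Zfp84 sequence.

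Over all listed peaks, the Zfp promoters as a family took a larger share of the tags in peaks in KLA than in Veh. Among them, the listed peaks with the KRAB spacing did so while those without it did not. All 118 peaks together took 1.12 and 1.08% of the tags in peaks in Veh, 1.21 and 1.21% in KLA, and 1.22 and 1.20% in RGFP966 + KLA. The ratio of KLA to Veh was 1.10 ± 0.0252 (SD of the 4 pairwise ratios of 2 and 2 libraries) with library sizes from tags in peaks but 1.01 with those from all tags. Here and below, this SD leaves out counting error. The 65 peaks with the spacing took 0.583 and 0.586% in Veh, 0.719 and 0.702% in KLA, and 0.685 and 0.679% in RGFP966 + KLA, so the Veh libraries lay below all others. The ratio of KLA to Veh was 1.21 ± 0.0177. The 52 peaks without the spacing took 0.535 and 0.483%, then 0.483 and 0.496%, then 0.523 and 0.519%, with overlapping Veh and KLA libraries and a ratio of 0.962 ± 0.0587. The 4795 other promoter peaks took 57.9 and 55.7% in Veh, and 55.2 and 53.7% in KLA, a ratio of 0.959 ± 0.0274, while the ratio of the 4716 distal peaks was 1.06 ± 0.0317. Zfp389, the remaining member, had no protein match. The groups entered the table unequally. Of the 65 peaks with the spacing, 42 (64.6%) were not in the set of peaks found in Veh, against 50.0% without it and 38.8% of other promoter peaks. Within that Veh set the KLA to Veh ratios of the 3 groups were 1.05 ± 0.0458, 0.892 ± 0.0851 and 0.897 ± 0.0264. The genes were chosen with results of these data known, so no test was run on any sum.

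Because every share depends on the library size used, the members were also set against the other promoter peaks of the same library, a quotient that no choice of library size can change. For each 100 tags in other promoter peaks, the members with the KRAB spacing held 1.01 and 1.05 tags in Veh, 1.30 and 1.31 in KLA, and 1.28 and 1.27 in RGFP966 + KLA. The ratio of KLA to Veh was thus 1.27, that of RGFP966 + KLA to KLA was 0.976, and that of RGFP966 + KLA to Veh was 1.24. The members without the spacing held 0.923 and 0.868, then 0.875 and 0.924, then 0.978 and 0.967 tags, with ratios of 1.00, 1.08 and 1.09. For each 100 tags in members without the spacing, those with it held 109 and 121 in Veh, 149 and 141 in KLA, and 131 in each RGFP966 + KLA library. Genes were called clustered if at least 3 other Zfp genes with a WT promoter peak lay within 500 kb. This group thus depends on which peaks were found in these libraries. Its 30 peaks, of which the KRAB group contributed 23, were at 0.470 and 0.504 in Veh, 0.628 and 0.643 in KLA, and 0.590 and 0.572 in RGFP966 + KLA.

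**Figure D2:**
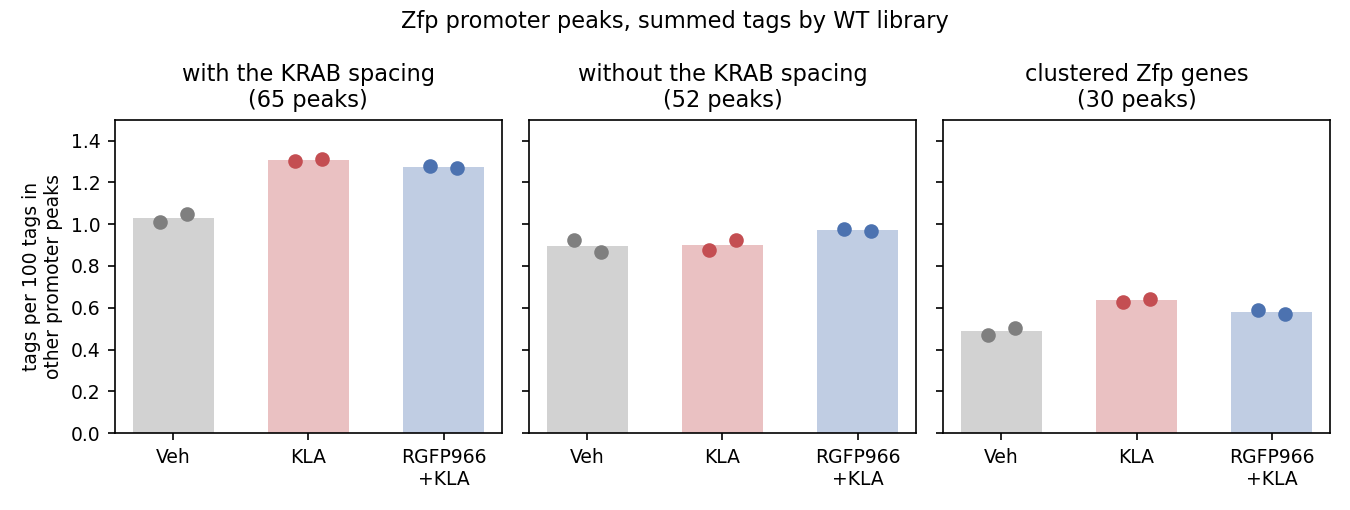
Summed tags of 3 groups of Zfp promoter peaks per 100 tags in other promoter peaks of the same library (vertical axis), for the 2 libraries (points) and their mean (bars) of each WT condition. In peaks with the KRAB spacing, the KLA libraries sit at 1.30 and 1.31, above Veh at 1.01 and 1.05, while those without it overlap.

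Which peaks are in the table depends on the condition in which they were found, so the quotient was recomputed in narrower sets. The Veh set lacked 42 of the 65 KRAB peaks, which entered the table through stimulated libraries. Among WT peaks that are also in the NCoR f/f Veh set, which still had to enter a WT set, it was 1.26 times as high in KLA as in Veh for 57 peaks with the spacing and 1.00 for 48 without. Among peaks of the RGFP966 + KLA set, whose libraries were also stimulated, the values were 1.27 for 54 peaks and 0.999 for 47. Among peaks of the Veh set they were 1.17 for 23 peaks and 0.997 for 26, and the plain share of the 23 was 1.05 ± 0.0458 times Veh. None of these sets is free of selection by the WT libraries. In the Veh set, the plain share of the KRAB group in RGFP966 + KLA was 0.958 times Veh with overlapping libraries, while the quotient was 1.11. Without the 5 members called below and the other called promoter peaks, the KLA to Veh quotient was 1.20 for 60 peaks. Adding boxes found by a looser pattern (L-Y, then V-M after 2 residues) gave 67 peaks and 1.27, and leaving out the peaks within 500 bp of another gene's TSS gave 55 peaks and 1.27.

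The median log2 change of the KRAB group with KLA was 0.25, with 48 of 65 peaks above 0, against -0.03 with 25 of 52 for members without the spacing, -0.05 with 2187 of 4795 for other promoter peaks, and 0.02 over all 9698 peaks. In 26 of 65 KRAB peaks both KLA libraries lay above both Veh libraries and in 7 both lay below, against 18.9 and 24.2% of all promoter peaks. With the inhibitor added to KLA, the median change from KLA was -0.08 in the KRAB group and 0.20 in members without the spacing (35 of 52 above 0), against -0.01 in other promoter peaks. Relative to Veh these libraries had medians of 0.24, 0.06 and -0.07. With library sizes from all tags in place of tags in peaks, the median over all peaks moved from 0.03 to 0.21 in the inhibitor comparison and from 0.04 to 0.14 relative to Veh. The KRAB median of the inhibitor comparison then became 0.09, so its sign followed the scaling, and it was below the median over all peaks in both.

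**Figure D3:**
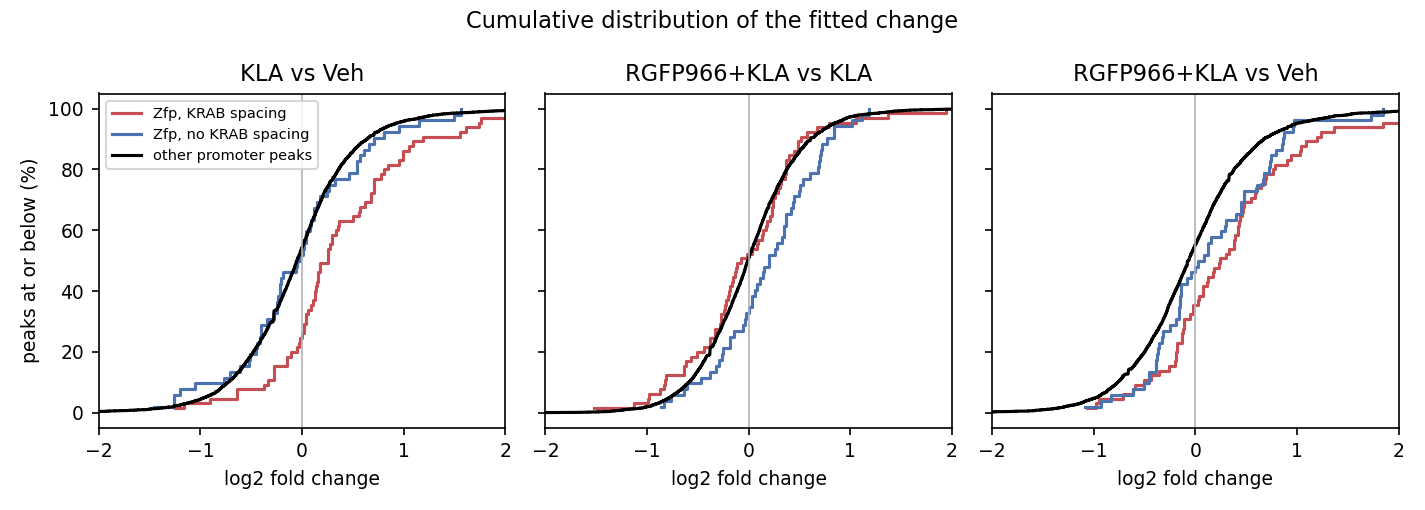
Share of peaks (vertical axis, %) with a log2 fold change at or below the value on the horizontal axis, for members with the KRAB spacing (red), members without it (blue) and other promoter peaks (black), drawn between -2 and 2. For KLA against Veh the red curve lies to the right, with a median of 0.25 against -0.03 and -0.05.

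The groups also differed in base composition, which was read in the 200 bp at the peak centre. The median GC content was 57% in the KRAB group, 65% in members without the spacing and 65.5% in other promoter peaks, and the median ratio of observed to expected CpG was 0.643, 0.808 and 0.836. Among peaks with at most 60% GC, the KLA to Veh ratio of shares was 1.29 ± 0.0310 for 41 KRAB peaks, 1.05 ± 0.0327 for 15 without the spacing and 0.986 ± 0.0319 for 1316 other promoter peaks. Among peaks with more than 60% GC it was 1.11 ± 0.0133 for 24, 0.915 ± 0.0717 for 37 and 0.949 ± 0.0266 for 3472. The 24 KRAB peaks held 316 and 303 tags in Veh and 512 and 320 in KLA. The counting error of such sums is not covered by the SD. In narrower bands the KRAB group was at 2.73 for 4 peaks up to 50% GC, at 1.21 and 1.21 for 50 to 55% and 55 to 60%, at 1.10 with overlapping libraries for 60 to 65%, at 1.27 for 65 to 70%, and at 0.775 above 70%, where it had 4 peaks, 0 of them with a log2 change above 0. In a refit with offsets from 20 bins of GC content, the median log2 change with KLA was 0.26 in the KRAB group and 0.01 in other promoter peaks. The part of base composition in the difference between groups was not tested.

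**Figure D4:**
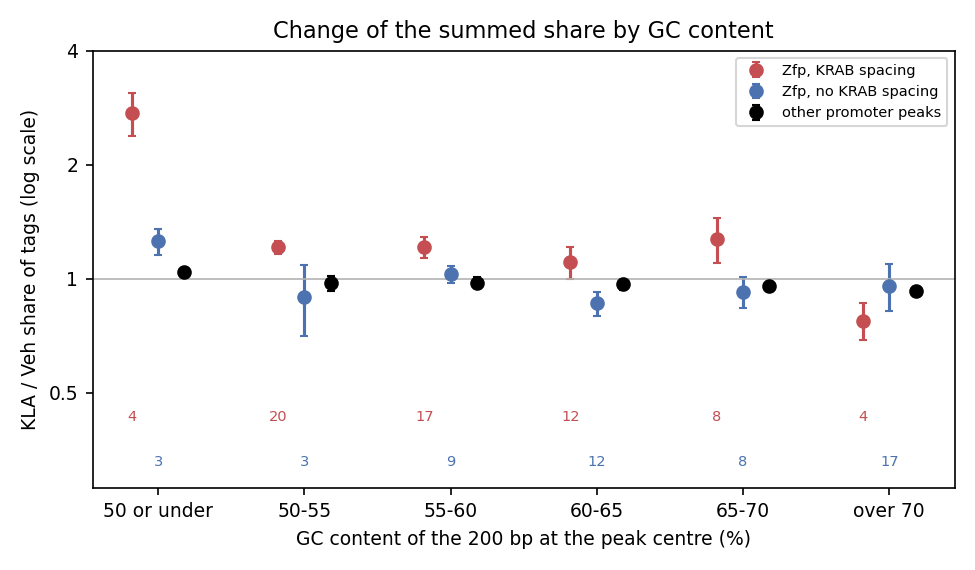
Ratio of the KLA to the Veh share of tags (vertical axis, log scale) by GC content of the peak (horizontal axis, %), for members with the KRAB spacing (red), members without it (blue) and other promoter peaks (black). Error bars are the SD of the 4 pairwise ratios and small numerals give the member peaks, with the red points at 1.21 and 1.21 in the 50 to 60% bands.

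Motif matches were counted in the same 200 bp. A GC box was present in 17 of 65 KRAB peaks (26.2%) and 22 of 52 without the spacing (42.3%), against 50.8% of other promoter peaks. NFY letters were present in 52.3 and 42.3%, against 43.5%, and ETS letters in 18.5 and 19.2%, against 16.4%. YY1 letters stood in 7 of 118 members (5.93%), those of Zfp39, Zfp68, Zfp157, Zfp292, Zfp341, Zfp595 and Zfp617, against 1.61% of other promoter peaks. In NCoR f/f the difference was smaller, with 9 of 271 members (3.32%) against 2.23% of other promoter peaks. NFkB letters stood in 0 of 118 members and 0.376% of other promoter peaks. AP-1 letters stood in 5 members (4.24%, against 3.72%), those of Zfp248, Zfp511, Zfp790, Zfp869 and the Zfp945 intron. All 5 had a log2 change above 0 for KLA against Veh (0.30 to 1.62, median 0.68), as had 105 of the 178 other promoter peaks with AP-1 letters (median 0.11).

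The test of single peaks asked which promoters opened or closed with KLA. Peaks were called at an adjusted p-value (Benjamini-Hochberg over all 9698 peaks, edgeR quasi-likelihood) under 0.05 and a fold over 2. For KLA against Veh, 5 of the 118 members rose and 0 fell. The background was 3.3% of all peaks higher and 1.73% lower, and 1.06% higher and 1.32% lower among promoter peaks. All 5 that rose carry the KRAB spacing. At an unadjusted p under 0.05 there were 21 members (17.8%), against 19.5% of all peaks.

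Zfp84 is encoded within a cluster on chromosome 7 and its peak spans 454 bp at 138 bp upstream of the TSS. It held 4 and 8 tags in Veh, 29 and 21 in KLA, and 24 and 20 in RGFP966 + KLA, or mean levels of 4.85, 16.7 and 11.1. The Veh libraries lay below the other 4. The log2 change for KLA was 1.76 ± 0.41 (SE, n = 2 and 2 libraries; adjusted p = 0.00585, edgeR), and the ratio of pooled tags was 3.43 (exact 95% interval 1.80 to 7.08, which covers counting error only). Against Veh, the RGFP966 + KLA value was 1.19 ± 0.43, which did not pass the test (adjusted p = 0.0645, edgeR). The SEs of single peaks here and below come from the F statistic of the fit. Where tags are few, they can be smaller than counting error alone.

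Zfp811 had the largest fitted fold of the 5, which moved with single libraries, at a peak with a TSS distance of -939 bp. It held 2 and 0 tags in Veh, 19 and 4 in KLA, and 17 and 15 in RGFP966 + KLA. The KLA libraries differed from each other as levels of 10.2 and 3.43, and both lay above Veh. The ratio of pooled tags was 9.47 (exact 95% interval 2.34 to 82.8) for KLA and 10.1 (2.57 to 86.9) for RGFP966 + KLA against Veh, with adjusted p-values of 0.0099 and 0.00289 in edgeR. The log2 change with KLA was 3.12 ± 0.78, but 2.23 without Veh replicate 2 and 1.99 without KLA replicate 1, where it did not pass (adjusted p = 0.137 and 0.411, edgeR). Without Veh replicate 1 the Veh tags were 0, so no fold is given. In the sequence printed above, its AP-1 match reaches past the central 200 bp and so is not among the 5 counted.

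Zfp945 had a pair of peaks, separated by 468 bp. The peak in intron 1, 584 bp downstream of the TSS, held 5 and 4 tags in Veh, 24 and 10 in KLA, and 32 and 20 in RGFP966 + KLA. It rose by a log2 change of 1.62 ± 0.49 with KLA (adjusted p = 0.0383, edgeR) and 1.84 ± 0.45 with RGFP966 + KLA against Veh (adjusted p = 0.00501, edgeR). The peak at the TSS held 2 and 3 tags in Veh, 4 and 8 in KLA, and 24 and 17 in RGFP966 + KLA, so it was high in the last pair of libraries. It rose against Veh by 2.32 ± 0.55 with RGFP966 + KLA (adjusted p = 0.00387, edgeR), whereas its values of 0.96 ± 0.72 from Veh to KLA and 1.37 ± 0.44 from KLA to RGFP966 + KLA did not pass (adjusted p = 0.51 and 0.128, edgeR).

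Zfp825 and Zfp938 completed the set, each with a peak at the TSS. Zfp825 held 4 and 3 tags in Veh, 19 and 10 in KLA, and 7 and 12 in RGFP966 + KLA. Its log2 change was 1.74 ± 0.52 for KLA (adjusted p = 0.0364, edgeR), and for RGFP966 + KLA against KLA the value was -0.98 ± 0.40, which did not pass (adjusted p = 0.252, edgeR). The TSS of the unnamed gene Gm49763 lies within 500 bp of this peak, so its tags cannot be given to Zfp825 alone. Zfp938 held 2 and 2 tags in Veh, 10 and 11 in KLA, and 12 and 16 in RGFP966 + KLA, with changes of 2.06 ± 0.65 (adjusted p = 0.0477, edgeR) and 2.09 ± 0.62 (adjusted p = 0.0218, edgeR) against Veh.

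None of these 5 peaks was in the Veh peak set of WT, yet 4 of them overlapped the Veh set of NCoR f/f cells. How many peaks a set holds depends on depth. The NCoR f/f Veh libraries held 372367 and 509741 tags in peaks, against 128949 and 121106 in WT Veh. In the NCoR f/f Veh libraries the overlapping peaks held 13 and 19 tags for Zfp84, 12 and 16 for Zfp825, 17 and 16 for Zfp938, and 9 and 17 for the Zfp945 intron, so tags were present there without KLA. The peak overlapping that of Zfp811 held 4 and 4 tags and was found only in the KLA set of NCoR f/f cells. DESeq2 on the same tags called 0 members and 0 of all 9698 peaks, with 5 members at an unadjusted p under 0.05. With a library left out, fewer members were called, as were fewer of all peaks. Library sizes from all tags left 2 members called, Zfp84 and Zfp811, and 305 of all peaks, against 488 in the main fit. With loess offsets 4 members rose and 1 (Zfp592) fell, while over all peaks 296 rose and 230 fell.

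**Figure D5:**
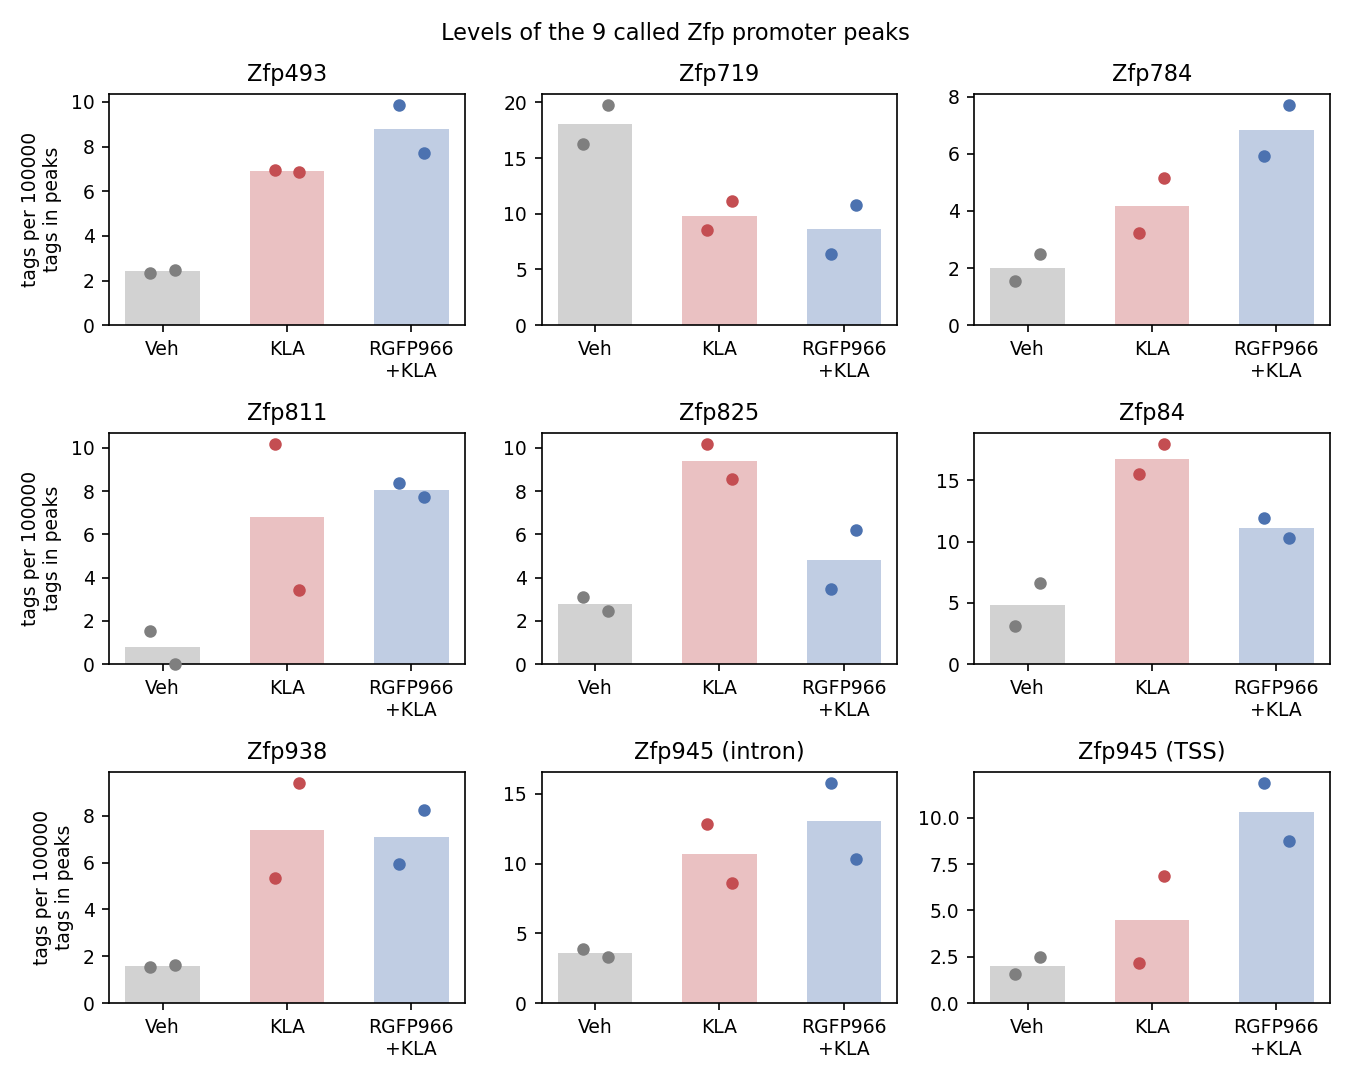
Level of the 9 called Zfp promoter peaks (vertical axes, tags per 100000 tags in peaks, each panel with its own scale) in the 2 libraries (points) and their mean (bars) of Veh, KLA and RGFP966 + KLA. Zfp719 is at 16.3 and 19.8 in Veh and between 6.42 and 11.1 in the other 4 libraries, while the other 8 have their lowest mean in Veh.

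The comparison of RGFP966 + KLA with KLA asks what the HDAC3 inhibitor changes during stimulation, and edgeR called 0 of 118 members. The background was 0.237% of all peaks higher and 0.103% lower, and 0.122% higher and 0.0814% lower among promoter peaks, so less than a single member would be called at those rates. At an unadjusted p under 0.05 there were 18 members (15.3%), against 13.8% of all peaks. DESeq2 called 0, with 2 of the 118 members and 144 of all 9698 peaks at an unadjusted p under 0.05. The second peak of Zfp869 held 6 and 2 tags in Veh, 16 and 13 in KLA, and 9 and 4 in RGFP966 + KLA, with a log2 value of -1.52 (adjusted p = 0.105, edgeR), while its main peak, 189 bp away, had 58 and 32 tags in KLA and 58 and 45 in RGFP966 + KLA. The Zfp869 second peak was lower by the test with loess offsets, and that of Zfp9 was higher with library sizes from all tags. These peaks were named after their values were seen.

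Among members with a mean of at least 20 tags whose libraries did not overlap, the largest differences from KLA were small. Zfp386 (levels of 25.7 and 27.4 in KLA, 33.6 and 34.5 in RGFP966 + KLA), Zfp706 (13.9 and 15.4, then 15.8 and 21.6) and Zfp189 (16.6 and 13.7, then 17.8 and 18) were the highest upward. Zfp213 (18.2 and 18.8, then 10.4 and 11.3), Zfp687 (24.1 and 26.6, then 18.3 and 13.9) and Zfp78 (41.7 and 41.1, then 31.6 and 37.1) were the highest downward. The log2 values ran from -0.76 ± 0.30 for Zfp213 to 0.37 ± 0.24 for Zfp386, and none passed (lowest adjusted p = 0.231, edgeR). The TSS of Mrpl50, which encodes a protein of the mitochondrial ribosome, lies within 500 bp of the Zfp189 peak.

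Both agents together were compared with Veh, and 6 peaks rose and 1 fell among the 118. The background was 6.89% of all peaks higher and 2.99% lower, and 2.1% higher and 2.61% lower among promoter peaks. At an unadjusted p under 0.05 there were 20 members (16.9%), against 25.4% of all peaks. The peaks that rose were Zfp811, both of Zfp945, Zfp938, Zfp493 and Zfp784. Zfp493 held 3 and 3 tags in Veh, 13 and 8 in KLA, and 20 and 15 in RGFP966 + KLA, with a log2 change of 1.84 ± 0.53 (adjusted p = 0.0177, edgeR). Zfp784 held 2 and 3, then 6 and 6, then 12 and 15 tags, with 1.73 ± 0.56 (adjusted p = 0.0445, edgeR). Neither carries the KRAB spacing, though Zfp493 does carry the looser pattern.

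Zfp719, a gene with the KRAB spacing, was the only member that fell. It held 21 and 24 tags in Veh, 16 and 13 in KLA, and 13 and 21 in RGFP966 + KLA, and its Veh levels of 16.3 and 19.8 lay above the other 4, between 6.42 and 11.1. The log2 value was -0.91 ± 0.34 for KLA, which did not pass (adjusted p = 0.108, edgeR), and -1.06 ± 0.33 for RGFP966 + KLA against Veh (adjusted p = 0.0282, edgeR). In contrast to the peaks that rose, it was in the Veh and KLA peak sets. DESeq2 called 0 members for this comparison, with 6 at an unadjusted p under 0.05. With loess offsets 4 rose and 2 fell, and with library sizes from all tags 6 rose and 0 fell (Zfp719 was lost). Over all 9698 peaks, 394 rose and 391 fell with loess offsets, and 589 rose and 122 fell with all tags. With either Veh library or RGFP966 + KLA replicate 1 left out, fewer members were called, as were fewer of all peaks.

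The most accessible member of WT was Zfp78, with levels of 36.4 and 38.8 in Veh, 41.7 and 41.1 in KLA, and 31.6 and 37.1 in RGFP966 + KLA, over a peak of 699 bp. Zfp386, Zfp317, Zfp869 and Zfp619 followed, with means of 28.4, 27.8, 26.4 and 22 over the 6 libraries, and all 5 carry the KRAB spacing. Per length, Zfp317 led with 8.70 per 100 bp, ahead of Zfp386 with 8.51 and Zfp869 with 8.47, values closer together than the libraries of each peak were. Member peaks had a median of 3.05 per 100 bp (range 1.40 to 8.70), against 3.35 in other promoter peaks, where the highest was 56.9. The medians with and without the KRAB spacing were 3.06 and 3.02. By condition, the KRAB median was 2.51 and 2.81 in Veh, 3.42 and 3.53 in KLA, and 3.20 and 3.28 in RGFP966 + KLA, against 3.05 and 2.98, then 3.02 and 2.92, then 3.28 and 3.37 without the spacing.

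Among members with at least 20 tags on average and no overlap, the largest differences for KLA against Veh upward were those of Zfp691 (13.2 and 14 in Veh, 17.6 and 27.4 in KLA), Zfp213 (15.5 and 9.08, then 18.2 and 18.8) and Zfp958 (10.9 and 14.9, then 15.0 and 18.8). Downward they were those of Zfp446 (18.6 and 18.2, then 10.7 and 12), Zfp622 (17.1 and 16.5, then 15.5 and 12) and Zfp574 (23.3 and 23.1, then 20.3 and 18.8). The log2 values lay between -0.71 ± 0.33 and 0.66 ± 0.31 and none passed (lowest adjusted p = 0.21, edgeR). When both agents were set against Veh, Zfp691, Zfp386 and Zfp189 were highest upward and Zfp367, Zfp687 and Zfp446 downward, between -0.51 ± 0.29 and 0.47 ± 0.31, with a lowest adjusted p of 0.259 (edgeR).

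By known role, none of the Zfp peaks on the role lists was called in any comparison. Among all promoter peaks, 0.0814 to 2.61% were called in a given direction and comparison. At those rates, an absence of calls in lists of 3 to 6 peaks says little about the roles. Of 8 genes for silencing of imprinted loci and retroelements, 3 had a peak in WT and 3 in NCoR f/f. Zfp568, which represses a placental transcript of Igf2, held 11 and 6 tags in Veh, 20 and 14 in KLA, and 20 and 32 in RGFP966 + KLA. Zfp809, which silences murine leukaemia proviruses, held 4 and 8, then 10 and 6, then 17 and 13. Zfp708 held 6 and 11, then 13 and 7, then 22 and 21. The 3 together were 1.25 ± 0.173 times as high in KLA as in Veh and 1.71 ± 0.282 times as high in RGFP966 + KLA, where the SD leaves out counting error. Their median log2 values for KLA and for RGFP966 + KLA relative to Veh were 0.13 and 0.67, against 0.02 and 0.04 over all peaks.

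Of 8 sequence-specific regulators of promoters, 5 had a WT peak and 8 an NCoR f/f peak. Zfp143, an activator bound at many promoters, had levels of 25.6 and 20.6 in Veh, 23.5 and 15.4 in KLA, and 20.2 and 15.4 in RGFP966 + KLA. Zfp281, a regulator of pluripotency genes, had 10.1 and 12.4, then 6.95 and 10.3, then 12.3 and 14.4. Zfp64, Zfp263 and Zfp384 were the others. The 5 together held 70 and 61 tags in Veh, 89 and 53 in KLA, and 114 and 109 in RGFP966 + KLA. Their share was at 0.889 ± 0.0454 of Veh in KLA and 1.21 ± 0.0329 of KLA in RGFP966 + KLA, with no overlap of libraries in either comparison. The SD leaves out the counting error of such small sums, and 2 libraries in each group can lie apart by chance. The median log2 values of the 5 regulators from Veh to KLA and from KLA to RGFP966 + KLA were -0.28 and 0.69, against 0.02 and 0.03 over all peaks.

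Of 11 genes with roles in RNA, the ribosome, ubiquitin and SUMO, 3 had a WT peak and 8 an NCoR f/f peak. These were Zfp326, of a complex linking splicing to elongation, Zfp451, a SUMO ligase, and Zfp622, of ribosome assembly, and their sum overlapped between conditions, with medians of -0.25 and 0.28 in the same comparisons. Of 14 genes of corepressor complexes and development, 5 had a WT peak and 8 an NCoR f/f peak. Zfp592, a partner of the chromatin reader ZMYND8, held 12 and 11 tags in Veh, 7 and 3 in KLA, and 7 and 12 in RGFP966 + KLA, with a log2 value of -1.46 ± 0.50 for KLA that did not pass (adjusted p = 0.0701, edgeR) but was called with loess offsets. Zfp516, a regulator of brown fat genes, had a pair of peaks, and the peak nearer its TSS had 14 and 5 tags in Veh and 14 and 6 in KLA. Zfp644, Zfp687 and Zfp703 were the others, and the 6 peaks had medians of 0.08 and 0.34.

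Of the 14 partners through which KRAB proteins silence chromatin, 5 had a promoter peak in WT and 12 in NCoR f/f, where TRIM28 itself was among them. The 5 peaks together held 64 and 57 tags in Veh, 101 and 58 in KLA, and 77 and 86 in RGFP966 + KLA. Their share was at 1.07 ± 0.0612 of Veh in KLA, 0.794 ± 0.0797 of KLA in RGFP966 + KLA and 0.851 ± 0.0793 of Veh in RGFP966 + KLA, without overlap of libraries. As above, the SD leaves out counting error, and 2 libraries in each group can lie apart by chance. The median log2 values of these 5 peaks were 0.00, -0.60 and -0.60, against 0.02, 0.03 and 0.04 over all peaks, and 0 of 5 lay above 0 from KLA to RGFP966 + KLA. Mphosph8, of the HUSH silencing complex, had levels of 20.9 and 12.4 in Veh, 21.4 and 18.8 in KLA, and 19.3 and 20.1 in RGFP966 + KLA. Dnmt3a, a DNA methyltransferase, held 8 and 9 tags in Veh, 7 and 2 in KLA, and 3 and 1 in RGFP966 + KLA. It was the only partner called, and decreased by 2.66 ± 0.58 on the log2 scale for RGFP966 + KLA against Veh (adjusted p = 0.00319, edgeR). In that comparison 2.61% of all promoter peaks were called lower. Atf7ip, Cbx5 and Morc3 were the others, and none of the 5 was called for KLA against Veh. The related Zbtb, Zkscan and Zscan genes had 24 promoter peaks in WT, at 0.311 and 0.267% of tags in Veh, 0.272 and 0.297% in KLA, and 0.275 and 0.258% in RGFP966 + KLA, with overlap throughout and a KLA to Veh ratio of 0.985 ± 0.102. The difference between their change and that of the KRAB group was not tested.

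Membership of the peak sets differed by group. Of the 65 KRAB peaks, 23 (35.4%) were in the Veh set, 40 (61.5%) in the KLA set and 54 (83.1%) in the RGFP966 + KLA set. The shares were 50.0, 50.0 and 90.4% for members without the spacing, and 61.2, 60.8 and 82.3% for other promoter peaks. In the NCoR f/f table, the sets named for Veh and KLA held 89 and 109 of 123 KRAB peaks (72.4 and 88.6%), against 74.1 and 79.6% without the spacing and 72.6 and 79.7% of other promoter peaks. The sets named for NCoR-deficient cells held 49 and 89 (39.8 and 72.4%), against 36.7 and 55.8%, and 42.2 and 62.9%. How many peaks a set holds depends on the depth of its libraries, and the libraries of the last 3 of these sets were not analysed here, so the shares are given without a test.

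Finally, nearly all WT member sites were also listed in NCoR f/f cells, as were most other promoter peaks of WT. Of the 118 WT members, 114 (96.6%, Wilson 95% interval 91.6 to 98.7) overlapped a member of the NCoR f/f table, whereas 117 of the 271 NCoR f/f members (43.2%, 37.4 to 49.1) overlapped a WT member. The NCoR f/f table is also the larger, with 24867 peaks against 9698. Its Veh set alone was overlapped by 106 of the 118 WT members and by 4354 of the 4795 other promoter peaks. The NCoR f/f members with a WT counterpart had a median level of 5.74, against 3.03 for the 154 without, per 100000 tags in peaks of that table. The highest NCoR f/f members were Zfp317 (levels of 12.1 and 17.5), Zfp446 (15.0 and 14.3), Zfp367 (14.2 and 14.3), Zfp687 (12.6 and 11) and Zfp869 (11 and 11.6). Zfp317 and Zfp869 were also among the 5 highest of WT. The WT peak of Zfp78, the highest there, overlaps separate NCoR f/f peaks with mean levels of 6.2 and 8.59. Its rank by single peak in NCoR f/f is therefore not that of the whole site. Per length, the median member had 1.24 per 100 bp, against 1.25 in other promoter peaks. In the NCoR f/f Veh libraries, members with the KRAB spacing held 1.01 and 0.987 tags for each 100 in other promoter peaks, and those without it 1.16 and 1.17.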

How the data were processed

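ATAC-seq tags of 8 libraries were analysed. Per the labels and methods, the authors used Bowtie2 on mm10 and HOMER peaks, of which they kept the reproducible ones (IDR) of the 2 most correlated samples of a condition and merged them. The deposited values are raw counts of tags per peak, with at most 3 tags per base position, and the distances, gene names and peak sets are the authors'. The members and lists were chosen with earlier results of these data known.

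All 6 WT libraries were fitted in edgeR 4.0.16 (R 4.3.3, quasi-likelihood), with total tags in peaks as library sizes and a minimum of 4 tags in any 1 library, which all 118 members passed. The code of the fit was checked on simulated tags with large planted changes and a fixed small spread, which does not test the calls made here. Sums, sequences and intervals (95%, counting error only) were computed in Python 3.11.15. Named members were those called, the 5 highest by level in each table, the 3 largest changes each way with a mean of at least 20 tags and no overlap, and role lists. Proteins were translated from RefSeq coding sequences on GRCm38.p6, with 112 of 113 WT genes and 209 of 210 NCoR f/f genes matched, and no protein table was used. Alternatives were DESeq2 1.42.0, TMM, loess and GC offsets, all tags, other filters and windows, the replicate number as a block, and each library left out. Part of the macrophage marker list is not reported here. Over members, replicates differed by 0.82 to 1.11 times the variance of counting.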

Additional observations from a re-analysis of the deposited data

How the results depend on the processing

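Calls of single members depended on the tool and on single libraries. For KLA against Veh, 5 members were called, against 2 with library sizes from all tags, 0 with DESeq2, 3 with a filter of 16 tags, and 1 to 4 with a library left out. With the inhibitor against KLA alone, 0 became 1 with loess offsets and 1 with all tags, and stayed 0 with any library left out. Against Veh with both agents, 7 became 0 with DESeq2 and 1 to 7 with a library left out. A group left with 1 library was assumed to vary like the others. Over all peaks, DESeq2 called 0 in each comparison, with 570, 144 and 742 at an unadjusted p under 0.05, where edgeR called 488, 33 and 958. Library sizes from all tags gave 305, 53 and 711 calls over all peaks. The filter of 16 tags gave 371, 28 and 623 among 7683 peaks. The cause of these differences was not tested.

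The replicate numbers did not pair the libraries (correlations of their deviations of 0.0155, 0.0173 and 0.0234 over 9698 peaks), and the replicate block gave 5, 0 and 7 calls. Among the called peaks and the largest changes with at least 20 tags on average, none changed direction under the alternatives run on them (peaks named only by level or role were not rerun singly). These values lost their call in 60 refits and kept their side of the threshold in 389. The 389 include every refit of the changes that were never called, so the 60 fell on the called changes alone. Among these, the call was lost in 2 of 15 refits for Zfp84 with KLA and in 11 of 15 for Zfp938 with KLA.

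The summed share of all members, 1.10 for KLA against Veh, was 1.01 with all tags and 1.13 with GC offsets. From KLA to RGFP966 + KLA it was 1.00, and 0.971 with TMM and 1.14 with all tags. From Veh to RGFP966 + KLA it was 1.10, and 1.06, 1.15 and 1.13 with TMM, all tags and GC offsets.

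The share of the KRAB group for KLA against Veh, 1.21, was 1.12 with all tags, 1.24 with GC offsets, 1.15 without the called peaks, 1.24 in the RGFP966 + KLA set and 1.05 in the Veh set. From KLA to RGFP966 + KLA, 0.960 became 0.930 with TMM, 1.09 with all tags, and 1.01 and 0.910 in those sets, so its direction followed the scaling. From Veh to RGFP966 + KLA, 1.17 became 1.12 with TMM, 1.22 with all tags, 1.18 with GC offsets, 1.18 with the looser pattern, 1.12 without the called peaks, 1.25 and 0.958 in those sets, and 1.18 without peaks near another TSS. The GC offsets, looser pattern and subsets were chosen after the data were seen. An overlap of 50% of both peaks left 107 of the 114 shared WT members. Low tag counts widen the intervals of single members, as for Zfp811 (2.34 to 82.8).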
